A study of Mus musculus with 20 samples.

Results

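Alas1 encodes the housekeeping 5-aminolevulinate synthase, the enzyme that starts haem synthesis. The members are all cDNA clones annotated to this gene alone. There was 1 such clone, number 27822, among the 7680 clones of the second array design and 0 among the 7680 of the first, so 1 of 15360 clones in all. The gene was chosen because its line difference in liver and its line difference in brown fat had opposite signs in these same arrays. Those values chose it, and they are given below as a description, with no p. The clone was spotted at 2 places in 1 printing block, and its values are means of those spots.

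The series holds 20 competitive hybridisations on 2 designs of spotted mouse cDNA array, 10 arrays each. Total RNA of the Fob3b line, a congenic mouse line that carries lean-line alleles at the Fob3b obesity locus on chromosome 15, was set against RNA of the F line, an obese selection line that supplies the rest of the Fob3b background. Each line and tissue was represented by 2 RNA pools, and the sources used here do not give the age, sex, housing or number of the animals behind a pool. On the design that carries the Alas1 clone there were 4 arrays of Fob3b liver against F liver (pool pair 1 and pool pair 2, each in both dye orientations) and 2 arrays of Fob3b brown adipose tissue against F brown adipose tissue (pool pair 1 alone, both orientations). The remaining 4 arrays were of liver. In 2 of them a Fob3b pool met the F pool of the other number, and in 2 both pools of the same line were compared. Alas1 lies on chromosome 9, not on the chromosome of the locus.

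Values are log2 dye ratios after subtracting the median clone of each array. They were turned by the channel labels so that Fob3b is the numerator if red was divided by green. The labels do not say which dye was divided by which, so a positive value means more RNA in Fob3b under the first reading and more in F under the second. All signs turn together, and whether liver and brown fat lie on opposite sides of 0 does not depend on it. A ratio carries no level, so neither the amount of Alas1 RNA in a tissue nor the identity of the tissue could be checked from markers. In pooled tissue, fewer cells of a type and less RNA per cell cannot be told apart.

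Haem is built by a chain of enzymes that begins and ends in the mitochondrion. 5-Aminolevulinate synthase joins glycine and succinyl-CoA in the step that limits the pathway, with Alas1 serving most tissues and Alas2 the red cell lineage. In liver much of the haem goes to cytochromes P450. Haem itself represses hepatic Alas1, and fasting induces it through the coactivator PGC-1alpha. Brown fat, the heat-producing depot, is packed with mitochondria whose respiratory complexes carry haem.

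The start region of the gene is shown because PGC-1alpha is known to act on Alas1 in part through NRF-1, whose binding motif GCGCATGCGC is a palindrome that reads the same on both strands. RefSeq lists 2 start windows for Alas1 on build GRCm38.p6, each running from 250 bases before a start to 50 after it. The 250 bases before the start of one of them, chr9:106247731-106247980 on the minus strand, hold the motif once, in capitals, beginning 195 bases before the start.

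Alas1 start region: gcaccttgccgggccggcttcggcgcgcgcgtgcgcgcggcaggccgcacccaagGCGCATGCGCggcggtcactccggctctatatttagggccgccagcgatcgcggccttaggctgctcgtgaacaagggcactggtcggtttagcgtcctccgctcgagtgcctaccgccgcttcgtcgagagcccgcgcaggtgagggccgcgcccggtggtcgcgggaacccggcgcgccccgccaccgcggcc

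The 250 bases before the other start do not hold these letters, but the 50 after it do, so both windows hold the motif. The motif was found in 319 of 32851 mouse windows of the same length, or 0.971%. This is a match of letters and no measurement of binding. The clones of Nrf1, the gene for the factor, were on the first array design and averaged 0.14 in liver and 0.10 in brown fat over 5 clones.

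2 features of the labels bear on the results. The brown fat arrays of the second design are described as a comparison of F with F, but each has Fob3b named in 1 channel, and the channel labels were used here. Genes on both designs allow a look at this: of the 32 genes past 1.5-fold with 1 sign on both arrays of brown fat pool pair 1 on the first design, 21 lay on the same side on the second. Fasn, the fatty acid synthase, was at 0.98 there and at 0.999 on the first, and Me1, the cytosolic malic enzyme, was at 1.01 and 1.23. Others changed side, such as the tropomyosin gene Tpm2, at 0.73 and -0.89. Of all 4075 genes of the second design, 56.1% were positive in brown fat. The brown fat correlation over the 943 shared genes was only 0.21. In liver only 3 genes met that rule on the first design, 2 of them on the same side on the second, and the correlation over the 943 shared genes was -0.05, so the liver direction could not be checked in this way.

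The other feature is a liver array on which Alas1 goes against the labels. Levels of the 4 liver pools, fitted by least squares to the other 7 two-pool liver arrays with a dye term, put Alas1 in Fob3b pool 2 at -1.05 relative to F pool 1. The array labelled Fob3b pool 2 against F pool 1 gave 1.05 after the same dye term, of equal size and opposite sign. Before the dye term it read 1.21, with 1.26 and 1.16 at the single spots, and no other clone on that array was higher. Over the 22 clones that the other arrays fitted closely (residual SD under 0.15) with a predicted difference past 0.5, 0 lay on the labelled side, and 0 of 21 without Alas1 (r = -0.91). Fasn, the carnitine palmitoyltransferase gene Cpt1a, Txnip and Lcn2 were among them. The array labelled Fob3b pool 1 against F pool 2, predicted from the 6 arrays that are not crossed, had 191 of 209 clones on the labelled side (r = 0.75). Many of the 209 have adjoining clone numbers, so they are not separate checks of the label. Clones 27035 to 27039, for example, were predicted at -1.76 to -1.42 and read 0.10 to 0.20 before the dye term. Put to the same rule without the array labelled Fob3b pool 2 against F pool 1, the direct arrays with Fob3b in green had 12 of 15 clones in pool pair 1 and 14 of 14 in pool pair 2 on the labelled side, and those with Fob3b in red had 10 of 22 in pool pair 1 and 10 of 10 in pool pair 2. The arrays within a line had 18 of 48 in Fob3b and 48 of 60 in F, so some other arrays were not predicted well either. A looser measure does not single the array out: among the 100 clones with the largest predicted difference, with no limit on the residual, it had 50 on the labelled side, and the other 7 arrays had 31 to 90. These rules were chosen after the values were seen, and why the array differs was not tested. None of the values for pool pair 1 and pool pair 2 below uses either crossed array.

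**Figure D1:**
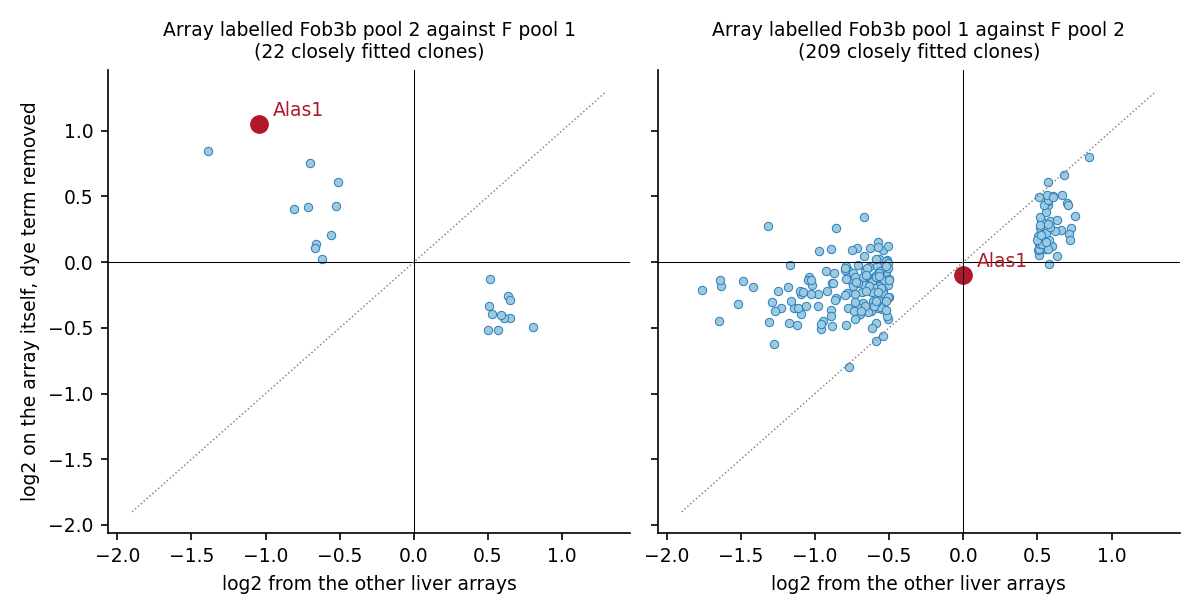
Log2 ratio of Fob3b over F on each crossed liver array, with the dye term removed, against the value predicted from the other 7 two-pool liver arrays (array labelled Fob3b pool 2 against F pool 1) or from the 6 that are not crossed (the other array). Each blue point is a closely fitted clone with a predicted difference past 0.5, Alas1 is red and the dotted line marks equality. On the array labelled Fob3b pool 2 against F pool 1, all 22 clones lie in the quadrants of opposite sign, with Alas1 at -1.05 predicted and 1.05 measured. On the other array 191 of 209 lie in the quadrants of equal sign.

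In liver, Alas1 lay on the negative side on all 4 direct arrays. Pool pair 1 gave -0.20 with Fob3b in red and -0.60 with Fob3b in green. Pool pair 2 gave -0.54 with Fob3b in red and -0.80 with Fob3b in green. In both pairs the array with Fob3b in green was the lower, and the gap between orientations was 0.40 in pair 1 and 0.26 in pair 2. The pair means were -0.40 and -0.67, and their mean was -0.53 (SD 0.19, n = 2 pool pairs), a 1.45-fold difference. A negative sign on all 4 arrays was shared by 763 of 7680 clones, or 9.93%, where 9.08% were positive on all 4, and 45 clones had a lower liver mean than Alas1.

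In brown fat, Alas1 lay far on the positive side in both orientations of its 1 pool pair. It read 1.18 with Fob3b in red and 1.11 with Fob3b in green, and the 4 single spots ran from 1.11 to 1.25. The mean of 1.15 is a 2.21-fold difference, and the gap between orientations was 0.07. Past 1.5-fold on the positive side with 1 sign on both arrays were 46 of 7680 clones, or 0.599%, of 2.27% on either side and 1.67% on the negative side. A positive sign on both arrays at any size was shared by 29.9% of clones, and 2 clones had a higher mean than Alas1. Brown fat pool pair 2 was not hybridised to this design in the arrays used here, so the brown fat value has no replicate pool.

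**Figure D2:**
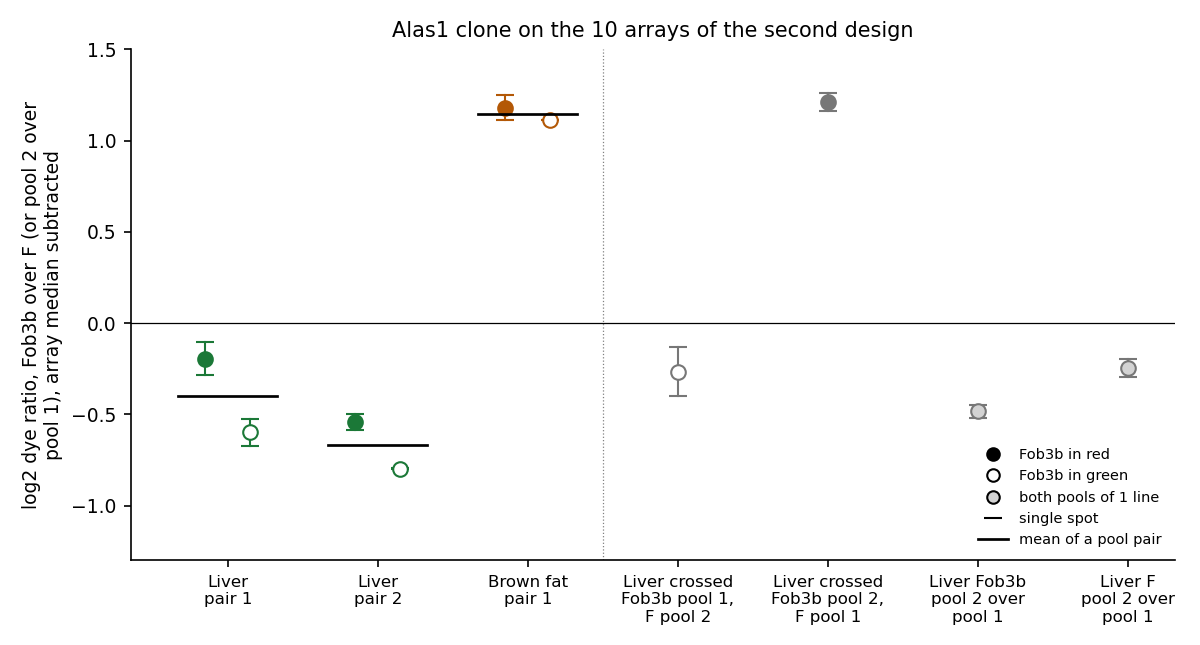
Log2 dye ratio of the Alas1 clone on the 10 arrays of the second design, Fob3b over F or pool 2 over pool 1, with the array median subtracted. Dashes are the 2 spots, circles their mean (filled, Fob3b in red; open, Fob3b in green; grey, both pools of 1 line) and black lines the mean of a pool pair. The 4 direct liver arrays lie between -0.80 and -0.20, and the 2 brown fat arrays lie at 1.18 and 1.11.

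The direct liver arrays did not overlap with the brown fat arrays: the highest of them, at -0.20, lay below the lower brown fat array, at 1.11. The crossed liver array labelled Fob3b pool 2 against F pool 1, at 1.21, lay above both brown fat arrays. The share of all clones without such overlap was not counted, and the gene was chosen by these values. Liver minus brown fat was -1.68, a 3.20-fold difference between the line ratios of the tissues, and -1.54 for pool pair 1 of both tissues. It was the lowest of all 7680 clones on the second design, and 1 clone lay farther from 0, on the other side. That clone was Tst, the mitochondrial thiosulfate sulfurtransferase, with 0.24 in liver and -1.57 in brown fat, a liver minus brown fat difference of 1.80. Next to Alas1 on its side came Me1 clone 31450 at -1.11, an unnamed clone at -1.04, Ccdc3 at -0.96 and the sulfotransferase gene Chst12 at -0.94. On the side of Tst followed the syndecan gene Sdc4 at 1.15, an unnamed clone at 1.01 and Cth, the cystathionine gamma-lyase, at 0.85.

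Some of these neighbours had little line difference in liver. Me1 clone 31450 had 0.09 in liver and 1.20 in brown fat, and Chst12 had 0.07 in liver and 1.01 in brown fat. Sdc4 had 0.09 in liver and -1.07 in brown fat. Liver thus stood close to 0 in those 3 clones, while it was at -0.53 for Alas1. Cth had 0.37 in liver and -0.48 in brown fat, on opposite sides like Alas1 but turned round, and the unnamed clone next to Me1 had 0.47 and 1.51, both positive. A negative sign on all 4 liver arrays with a positive sign on both brown fat arrays was found for 112 of 7680 clones, or 1.46%, and the reverse pattern for 87, or 1.13%. At a size of 1.33-fold in both tissue means, 1 clone lay below in liver and above in brown fat, and that clone is Alas1. This cut lies under the 1.45-fold liver mean of Alas1. The gene was chosen by these values, so nothing is read from its place there. At 1.5-fold in both means there was none, since the liver mean of Alas1 is under that size. Among clones with 1 direction in both tissues past 1.5-fold, 3 were positive, including those of Fasn and of the sterol enzyme gene Msmo1, and 2 were negative.

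**Figure D3:**
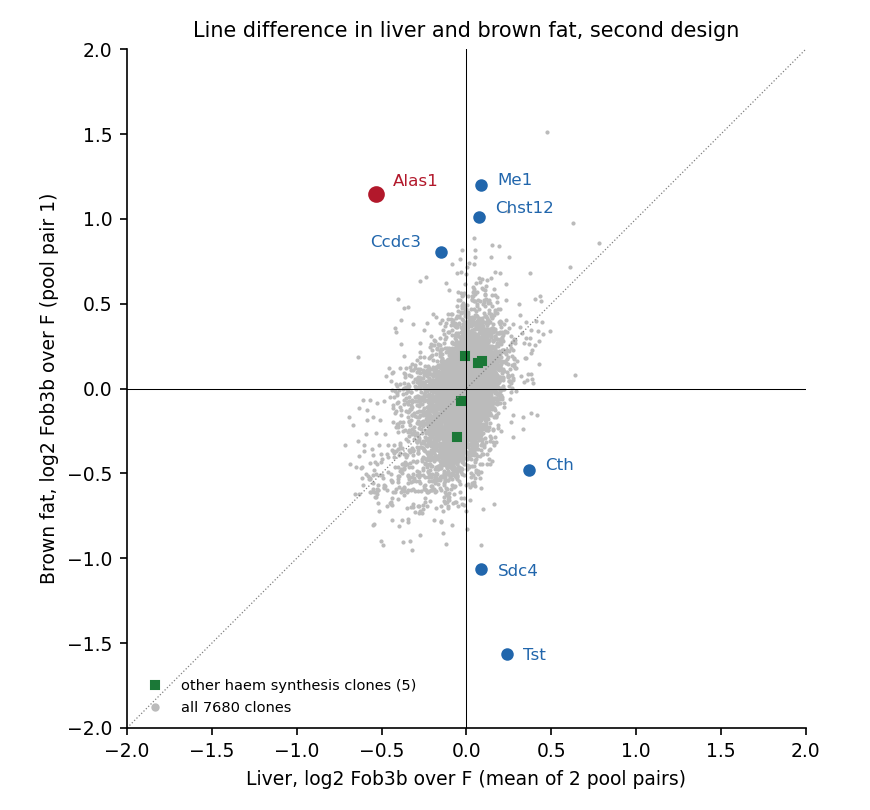
Mean log2 ratio of Fob3b over F in liver (horizontal axis, mean of 2 pool pairs) and in brown fat (vertical axis, pool pair 1) for the 7680 clones of the second design. Alas1 is red, the named clones nearest to it in the ranking of liver minus brown fat at either end are blue, and the 5 other haem synthesis clones are green. Alas1, chosen by these values, lies in the upper left at -0.53 and 1.15, while Me1, Chst12 and Sdc4 lie close to 0 in liver and the green clones lie near the centre.

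Across all clones limma called 29 of 7680 in liver on the second design at an adjusted p under 0.05, or 0.378%, with 2 on the positive and 27 on the negative side. Many of the 27 have adjoining clone numbers, such as all clones from 23434 to 23440, so they are not separate results. Printing blocks carried 6.61% to 46.8% of the variance over clones on these arrays, and their part in the calls was not tested. For liver minus brown fat limma called 2 of 7680, or 0.026%, which were Tst on the positive side and Alas1 on the negative side, 0.013% each. The gene was chosen for this difference, so its place there is no independent test and nothing is read from it. The call on the negative side is lost without centring, with printing blocks centred and with arrays scaled to a common spread. On the first design, which lacks the gene, 0 of 7680 clones, or 0%, passed in liver, in brown fat or in their difference, with 253, 65 and 220 clones at an unadjusted p under 0.05. These tests rest on the spread between 2 pool pairs of a tissue, drawn for each clone toward the spread of all clones. On the second design a clone's own spread has 1 degree of freedom, against 7.63 from all clones. There the lone brown fat pair is assumed to vary like the liver pairs.

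The liver pools also differed within a line. Fob3b pool 2 over Fob3b pool 1 gave -0.48 for Alas1, with 136 of 7680 clones lower, and F pool 2 over F pool 1 gave -0.25, with 687 clones lower. Each was hybridised in 1 orientation only. Fitted to 7 arrays, without the array labelled Fob3b pool 2 against F pool 1, the levels relative to F pool 1 were -0.42 in Fob3b pool 1, -1.05 in Fob3b pool 2 and -0.37 in F pool 2. Both pools numbered 2 thus lay below their line's pool 1, Fob3b pool 2 was the lowest of the 4, and Fob3b pool 1 and F pool 2 differed by less than the residual SD of 0.06. The step between pools, -0.63 in Fob3b, was as large as the mean line difference of -0.55 in this fit. With all 8 arrays as labelled the residual SD was 0.80 and the line difference -0.20. With the sign of that array turned they were 0.05 and -0.55. The other crossed array, Fob3b pool 1 against F pool 2, read -0.27, or -0.10 after the dye term, where the direct and between-pool arrays predict -0.005.

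The other enzymes of the pathway were looked at to see whether they shared the Alas1 pattern. On the second design 5 of them were measured, on the first 3, with Fech on both. None was called by limma in liver, in brown fat on the first design or in liver minus brown fat, against the shares of all clones given above, and the smallest adjusted p in the 5 lists of haem genes was 0.41 on the second design and 1 on the first. On the second design, 2 of these 5 were positive and 3 negative in liver (median -0.01), and 3 were positive and 2 negative in brown fat (median 0.15). Over all 4075 genes the medians were 0.00 in liver and 0.03 in brown fat.

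Alas2, the red cell form of the synthase, ran against Alas1 in brown fat. Its liver arrays read 0.30 and 0.08 in pool pair 1, while those of pool pair 2 read -0.37 and -0.24. The liver mean was -0.06 (SD 0.35, n = 2 pool pairs). Its brown fat arrays read -0.11 and -0.47, on the side of 0 opposite to Alas1. Liver minus brown fat was 0.23 (SE 0.20, limma adjusted p = 0.82).

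Alad, the dehydratase that joins pairs of aminolevulinate molecules, was on the first design only and averaged -0.17 in liver (SD 0.20) and 0.04 in brown fat (SD 0.33, n = 2 pool pairs each). Its 4 liver arrays ran from -0.76 to 0.60 and its 4 brown fat arrays from -0.31 to 0.85, so neither tissue kept 1 sign. Uros, the synthase that closes the tetrapyrrole ring, averaged -0.01 in liver (SD 0.11) and 0.19 in brown fat, where its arrays read 0.11 and 0.27. Urod, the decarboxylase that follows, averaged 0.09 in liver (SD 0.01) and 0.17 in brown fat, with all 6 arrays on the positive side.

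Cpox, the coproporphyrinogen oxidase, averaged -0.02 in liver and -0.01 in brown fat on the first design, with a liver SD of 0.66 between pool pairs at -0.49 and 0.45. Ppox, the protoporphyrinogen oxidase, averaged 0.07 in liver (SD 0.07) and 0.15 in brown fat. Fech, the ferrochelatase that inserts the iron, averaged -0.03 in liver (SD 0.02) and -0.07 in brown fat on the second design. On the first it averaged 0.01 in liver (SD 0.06) and 0.23 in brown fat (SD 0.17). The largest mean of these enzymes in either tissue, -0.29 for Alas2 in brown fat, lay well inside the 1.15 of Alas1.

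**Figure D4:**
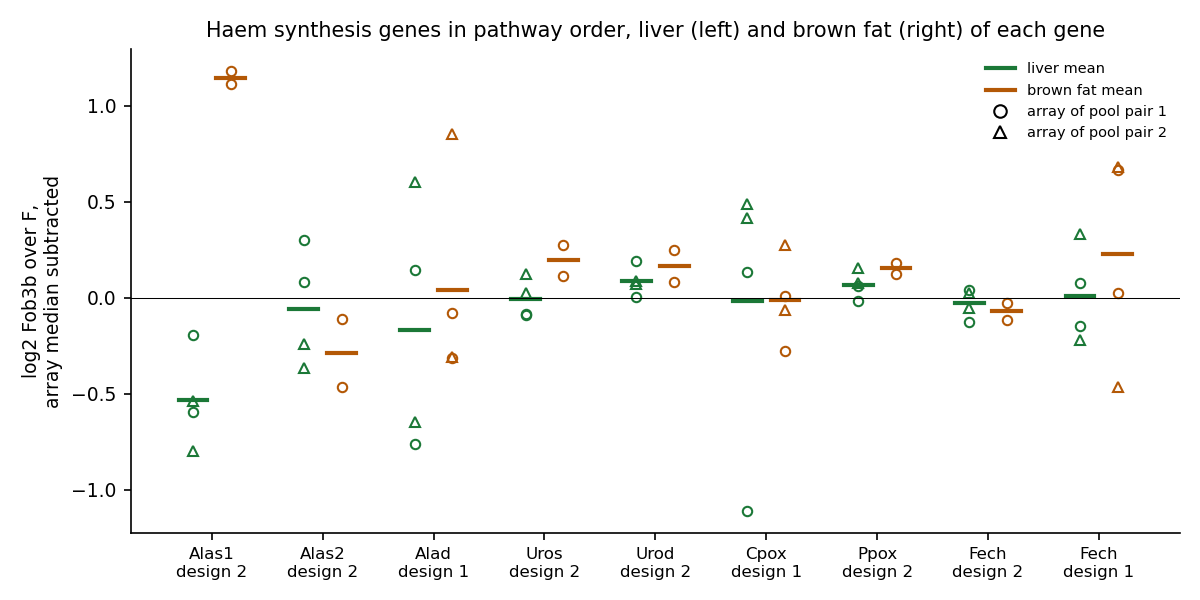
Log2 ratio of Fob3b over F for the 8 measured haem synthesis genes in pathway order, array by array, with liver on the left and brown fat on the right of each gene. Circles are arrays of pool pair 1, triangles arrays of pool pair 2 and bars the mean of the pool pairs. Alas1 has its direct liver arrays below and its brown fat arrays above 0, while the means of the other genes stay between -0.29 and 0.23.

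Genes that supply or move the substrates, porphyrins and haem were the next list. On the second design, 5 of its 7 measured genes were positive in liver and 6 of 7 in brown fat, where 51.4% and 56.1% of all 4075 genes were positive, and 0 passed the test. Hebp1, a haem-binding protein, had 0.06 in liver and 0.37 in brown fat. Lonp1, the mitochondrial protease known from human cells to degrade the synthase when haem is plentiful, had 0.02 in liver and 0.30 in brown fat. Abcb10, a transporter of the inner mitochondrial membrane, had 0.20 in liver and 0.21 in brown fat. The mitochondrial iron carrier Slc25a37 had 0.05 in liver and 0.13 in brown fat.

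The subunits of succinyl-CoA synthetase, which acts on the substrate of the synthase, lay near 0. Suclg1 had 0.07 in liver and 0.20 in brown fat, Suclg2 had -0.02 and 0.01, and Sucla2 had -0.11 and -0.04. On the first design, 1 of 11 genes of this list had a positive mean in liver and 10 of 11 had one in brown fat. Of all 3838 genes, 44.9% and 59.3% were positive, and again 0 genes of the list passed. Sucla2 had -0.44 in liver and 0.23 in brown fat there, Suclg2 had -0.27 and 0.18, and Shmt2, the mitochondrial enzyme that makes glycine, had -0.31 and 0.04. The liver pool pairs differed: Shmt2 stood at -1.11 in the first pair and at 0.48 in the second, Sucla2 had -0.90 and 0.02, and Abcb10 had 0.31 and -0.48, while Clpp had -0.10 and -0.15. In brown fat each of the 11 genes had arrays on both sides of 0, such as -0.38 to 0.84 for Slc48a1 and -0.19 to 0.72 for Sucla2. Abcb6, Clpp, Pgrmc1, Slc25a39, Slc48a1 and Tmem14c ran from -0.25 to -0.05 in liver and from 0.04 to 0.25 in brown fat. The haem exporter gene Flvcr1 alone was turned the other way, at 0.14 in liver and -0.09 in brown fat. Abcb10 read -0.09 in liver and 0.12 in brown fat on that design.

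Among genes of haem breakdown and iron handling, 6 were measured on the second design and 10 on the first, and 0 passed. On the second design Hmox2, the constitutive haem oxygenase, had 0.03 in liver and 0.22 in brown fat, and the transferrin receptor gene Tfrc had 0.01 in liver and 0.17 in brown fat. The iron exporter gene Slc40a1 had -0.07 in liver and 0.08 in brown fat. Hmox1, the inducible haem oxygenase, was on the first design at -0.26 in liver and -0.07 in brown fat. On that design Hmox2 had -0.30 in liver and -0.17 in brown fat, and Tfrc had 0.22 and 0.11.

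Of the P450 system, 4 genes were measured on the second design and 8 on the first, and of other haem proteins and related genes 9 and 6, with 0 passing in either. Cyb5b, the outer mitochondrial cytochrome b5, was the only gene of the 5 haem lists other than Alas1 past 1.5-fold in brown fat on the second design, at 0.64, with 0.09 in liver (liver minus brown fat -0.55, SE 0.14, limma adjusted p = 0.41). The lists do not hold every haem protein: the peroxidase gene Pxdn, on none of them, had 0.66 in brown fat. Cyp39a1 had 0.06 in liver and -0.22 in brown fat, and Cyp11a1 had 0.04 and -0.19. Cox10, which makes haem O for cytochrome oxidase, had -0.16 in liver and 0.22 in brown fat, Ngb, the neuronal globin, had 0.02 and -0.36, and the haem-binding repressor gene Bach1 had 0.02 and 0.24.

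Known regulators of Alas1 gave no call in 8 genes of the second design and 6 of the first. Among the measured ones, the retinoid X receptor gene Rxrb had -0.18 in liver and 0.11 in brown fat, Nr0b2, the small heterodimer partner, had -0.06 and -0.24, and the deacetylase gene Sirt1 had -0.36 and -0.45. The liver mean of Sirt1 came from pool pair 2, at -0.77, with 0.04 in pool pair 1. Foxo1, which takes part in the fasting response of the gene, had -0.11 in liver and -0.17 in brown fat. Ppargc1a, the gene for PGC-1alpha, was not analysed here.

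Since hepatic Alas1 follows feeding state and the clock, genes of both were set beside it. The fasting list had 2 measured genes on the second design, and both had a negative mean in liver and a positive mean in brown fat, as Alas1 did. Of all 4075 genes of that design, 21.0% had these signs. Plin2, a lipid droplet coat protein, had -0.39 in liver and 0.26 in brown fat, and Cpt1a had -0.37 in liver and 0.19 in brown fat. Both lay lower in liver pool pair 1, with -0.64 against -0.14 in pool pair 2 for Plin2 and -0.57 against -0.16 for Cpt1a, while Alas1 was lower in pool pair 2. Neither passed in liver or in the difference, where the limma adjusted p was 0.49 for Plin2 and 0.51 for Cpt1a. All 3 fasting genes of the first design, Vnn1, Acadm and Got1, had the same signs as means, as did 37.0% of the 3838 genes there, with -0.56 in liver and 0.10 in brown fat for Vnn1, a pantetheinase, and 0 passed.

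Among 7 clock genes of the second design, 0 passed. Noct, a rhythmic phosphatase, was negative in both tissues, at -0.43 in liver (-0.03 in pool pair 1 and -0.84 in pool pair 2) and -0.91 in brown fat over 2 clones, and Per3 was positive in both, at 0.17 and 0.59. Usp2 had 0.00 in liver and 0.20 in brown fat. Fatty acid synthesis genes were mostly positive in brown fat, 7 of 8 on the second design, with medians of 0.08 in liver and 0.66 in brown fat. Alas1 was left out of the counts of list members that passed, because its values chose it. Among the other list members only Fasn passed, in liver at 0.63 (SE 0.08, limma adjusted p = 0.042). This is the side of 0 opposite to Alas1 in that tissue, and Fasn had 0.98 in brown fat. On the first design Fasn averaged 0.06 in liver, with pool pairs at -0.59 and 0.71, and did not pass. The call of Fasn is lost without centring, with printing blocks centred and with arrays scaled.

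Among markers of other cell types, those of skeletal muscle lay on the same side as Alas1 in brown fat on the second design and on the opposite side on the first. Of the 17 skeletal muscle markers, 2 were measured on the second design: Mylpf, a fast muscle myosin light chain, had -0.03 in liver and 0.69 in brown fat, and Tpm2, a tropomyosin, had -0.08 in liver and 0.73 in brown fat. On the first design, in the brown fat pool pair 1 that gave the Alas1 value, Tpm2 had -0.89 and the muscle actinin gene Actn3 had -0.58. Their part in the Alas1 value was not tested. Of the red cell markers other than Alas2 on the second design, Hbb-b1, a beta globin, had -0.23 in liver and 0.01 in brown fat. Slc4a1, the anion exchanger, had 0.16 and 0.15, and Bpgm had -0.02 and -0.03. On the first design Gata1 had 0.50 in liver, with arrays from 0.25 to 1.08, and 0.01 in brown fat. Ermap had 0.02 and -0.14 there. The 3 measured of 17 brown adipocyte markers, all on the second design, stood near 0 in brown fat. They were Elovl3 at -0.06, Fabp3 at -0.11 and Prdm16 at -0.15. The macrophage markers C1qa, C1qb and Fcgr1 of that design had -0.05, -0.02 and 0.15 in brown fat. Of the 13 general fat cell markers, 2 were measured on each design. On the second, the glucose transporter gene Slc2a4 had 0.15 in liver and 0.65 in brown fat, and the lipase gene Pnpla2 had 0.07 in both. On the first, Pnpla2 had -0.23 in liver and 0.11 in brown fat, and the lipase gene Lpl had -0.12 and -0.25. None of these passed. No hepatocyte marker was measured on the second design. On the first, where 2113 of all 3838 genes had a negative liver mean, all 5 measured of 26 had one. They ran from -0.74 for Alb, serum albumin, and -0.43 for Tdo2 to -0.14 for Fga, with 0 passing. In liver pool pair 1 they ran from -1.26 to -0.39, and in pool pair 2 from -0.22 to 0.31. Their part in the liver value of Alas1 was not tested.

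Among the 4074 other genes of the second design, the 8 nearest to Alas1 were taken by the root mean square difference over the 6 direct arrays, 4 of liver and 2 of brown fat. Arrays of a pool pair share their RNA, so the 6 points stand for 3 pool pairs. In order these were Ccdc3, Cryab, Pxdn, Fhl1, Vwa8, Tpm2, Txnip and Slc38a10, at distances of 0.44 to 0.52, where the median gene stood at 0.82 and Alas1 itself lay 0.81 from 0. They were chosen by these values, which follow as a description.

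Ccdc3, a secreted protein, had -0.15 in liver and 0.81 in brown fat, its liver arrays running from -0.28 to 0.00. Cryab, a small heat shock protein, had -0.27 in liver and 0.63 in brown fat. Pxdn, a haem peroxidase of the extracellular matrix, had -0.24 in liver and 0.66 in brown fat. Fhl1, a LIM-domain protein of muscle, had -0.40 in liver, from -1.01 to 0.03, and 0.53 in brown fat. Vwa8, a mitochondrial protein, had -0.37 in liver and 0.47 in brown fat.

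Txnip, the thioredoxin-interacting protein, was the nearest of the 8 to Alas1 in its liver mean, with -0.42 in liver and 0.36 in brown fat. Like Alas1 it was lower in pool pair 2, at -0.64 and -0.67, than in pool pair 1, at -0.23 and -0.13. Slc38a10, an amino acid transporter, had -0.12 in liver and 0.62 in brown fat. All 8 lay below Alas1 in brown fat and above it in the liver mean. None of the 8 was among the 8 nearest by Pearson correlation over the same arrays, a list led by Slc45a4 (r = 0.99) with 0.11 in liver and 0.55 in brown fat, and 6 of the 8 were kept when each printing block was centred on its own median.

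**Figure D5:**
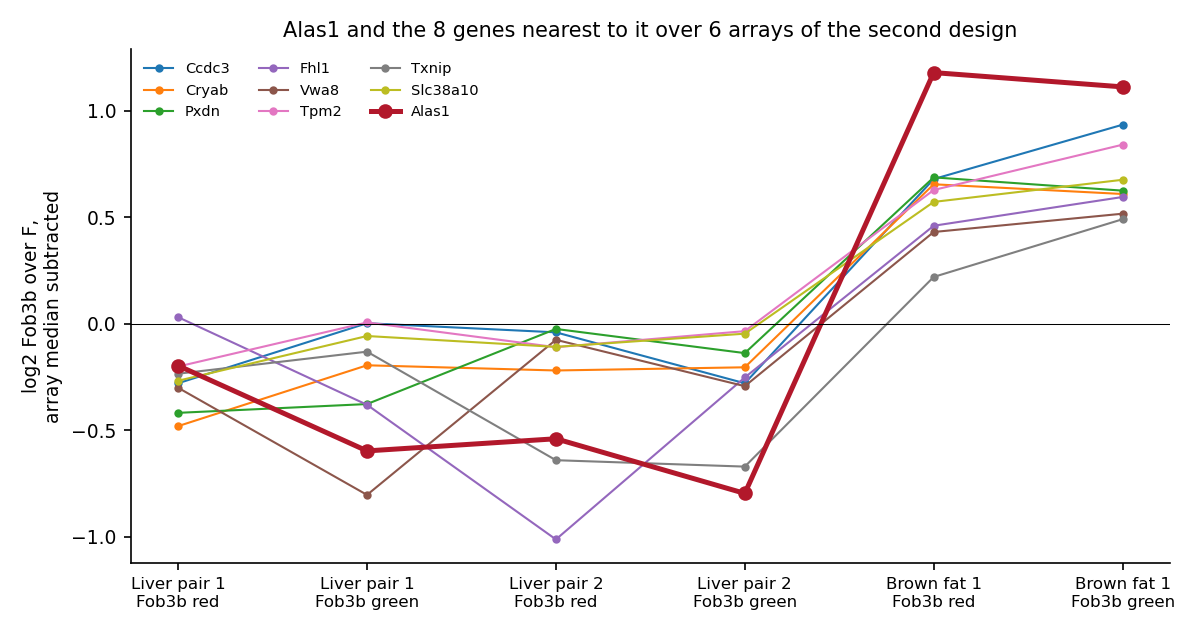
Log2 ratio of Fob3b over F on the 6 direct arrays of the second design for Alas1 (thick red line) and the 8 genes with the smallest root mean square difference from it. Lines join the arrays only to follow a gene. The genes lie at or below 0.03 on the liver arrays and above 0.2 on the brown fat arrays, and Alas1 is the highest of them on both brown fat arrays.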

How the data were processed

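Liver and brown adipose RNA pools of Fob3b and F mice had been compared on 2-colour cDNA arrays. The deposited values are 1 log2 dye ratio per spot. The sources used here do not give how the authors scanned, background-corrected and normalized the arrays, which dye is the numerator or the log base. Base 2 was assumed. No intensities were available, so signal over background is unknown and the number of arrays limits precision. Array medians ran from -0.82 to 0.31 on the second design, so the median of the clone spots was subtracted from each array. The 2 spots of a clone (160 rows apart) were averaged, ratios were turned to Fob3b over F by channel label, and dye orientations were averaged per pool pair. The paired spots correlated at 0.64 to 0.87 on the second design. Clone annotation gave 4855 of its 7680 clones 1 gene, 274 several and 2551 none.

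All clones of a design were fitted with limma 3.58.1 in R 4.3.3 (tissue as factor, moderated variances, Benjamini-Hochberg adjustment, two-sided, threshold 0.05). The deposited labels do not say whether pools came from separate animals, so p-values measure only the spread between pools. The steps were tested on simulated data. Alas1 and the gene lists were chosen with earlier results of these data known. Named genes are Alas1, the measured genes of haem synthesis and transport, in each other list those that passed or else up to 3 with the largest liver minus brown fat difference on the second design, the 8 nearest genes and the neighbours in rank. Fasn, Me1 and Msmo1 across comparisons, Foxo1, Hmox1, Nrf1, Vnn1, Acadm, Got1, Lcn2, Alb, Fga, Actn3, Lpl, Gata1, Ermap and the Pearson neighbour Slc45a4 were named after their values were seen. Alternatives covered centring, scaling, spots, dye orientation, pool pairs and crossed arrays.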

Additional observations from a re-analysis of the deposited data

Results flagged for a closer look

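Alas1 is taken up for its opposite sides: all 4 direct liver arrays were negative and both brown fat arrays positive. The liver minus brown fat difference was -1.68, for which no p is given because the gene was chosen for it. The same arrangement held for 5 of the 8 genes nearest to Alas1, with a difference of -0.91 for Cryab, -0.90 for Pxdn, -0.74 for Slc38a10, -0.77 for Txnip and -0.84 for Vwa8, and none of the 5 passed the limma test over all clones. These genes were selected for their likeness to Alas1 on those arrays. In all, 6 of 17 genes by design that were looked at showed opposite sides, and these are Alas1 and the 5 genes just named. Of all 7680 clones of the second design, 1.46% showed the arrangement of Alas1 and 1.13% the reverse. All 6 were picked on these same arrays, so nothing is read from the count.

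1 array stood apart from the other 3 of its group. The liver array of pool pair 1 with Fob3b in red gave -0.48 for Cryab, against -0.22, -0.20 and -0.19 on the other liver arrays. Among 20 groups of 4 arrays this was the only such array, and chance alone gives about 1 in 20.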

How the results depend on the processing

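Alas1 kept its negative side in liver and its positive side in brown fat under every alternative run, with -0.90 to -0.20 in liver over 13 alternatives, 0.79 to 1.18 in brown fat over 8 and -1.81 to -1.34 for liver minus brown fat over 14. Without centring it had -0.90 in liver and 0.79 in brown fat. Brown fat gave 0.99 with each printing block centred and 0.96 with arrays scaled to a common spread. The lowest size came from all 8 two-pool liver arrays as labelled, with -0.20 in liver and -1.34 for the difference. Leaving out the array labelled Fob3b pool 2 against F pool 1, or turning its sign, both chosen after the data were seen, gave -0.55 and -1.69. Leaving out a liver pool pair gave -0.67 to -0.40 in liver and -1.81 to -1.54 for the difference, and brown fat has no other pool pair. With the replicate block, pool pair 1 of both tissues, the difference was -1.54. Of 510 values of other named genes, 366 stayed within 1 SD and 144 moved further.

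The counts of calls were less stable, and the cause was not tested. On the second design, limma called 159 clones in liver (0 positive) and 1 for the difference (positive) without centring, 0 and 0 with blocks centred or arrays scaled, 2 and 19 with every array as a replicate and 7 and 10 with clones averaged per gene, against 29 and 2. On the first design the 0 calls became 1 in brown fat without centring. Leaving out a pool pair gave 0 to 140 in liver (140 without liver pair 2, 42 without pair 1), 0 to 4 in brown fat and 0 to 95 for the difference. There the replicate block over the tissues called 0 clones, with 491 at an unadjusted p under 0.05. Pool pair deviations correlated at 0.38 between tissues, but nothing says that a number marks shared animals. In brown fat on the second design, 1283 clones passed 1.5-fold without centring (7 positive, 1276 negative), 113 with blocks centred (56 and 57) and 62 with scaling (24 and 38), against 174 (46 and 128). The 8 nearest genes shared 0 with the Pearson list and 6 with the block-centred list.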
